A study of Mus musculus with 28 samples.

Results

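The genes examined were the cholesterol synthesis genes Hmgcs1, Sqle, Lss, Srebf2, Insig1, Idi1 and Fdft1, which were taken from the gene table by their symbols and make up 7 of its 55450 genes. They were followed in the mouse Pre-B cell line C10, whose cells hold a transgene for rat C/EBPα fused to the hormone-binding domain of the estrogen receptor (CEBPalpha-ER). C/EBPα is a myeloid transcription factor, and β-estradiol releases the fusion protein into the nucleus, so that these B cell precursors convert toward macrophages. The 4 groups were uninduced cells (0h) and cells induced for 1h, 12h or 48h with 100 nM β-estradiol together with 10 nM IL-3 and CSF-1, and each group had 3 biological replicates of RNA-seq. All groups, the 0h group included, carried the transgene, and all came from 1 cell line, so that the p-values below measure the spread between cultures of that line. The estradiol and both cytokines were added together, so their contributions cannot be told apart. Promoter Capture Hi-C, which lists the fragments that contact promoters, was available once per time with 2 replicates merged.

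Cells build cholesterol from acetyl-CoA through mevalonate, isoprenoid units, squalene and lanosterol. The genes of the pathway are largely under SREBP2, the product of Srebf2, a membrane-bound transcription factor that SCAP escorts to the Golgi for cleavage when sterols are scarce. INSIG1 holds the SCAP-SREBP complex in the endoplasmic reticulum when sterols are plentiful, and Insig1 is itself a target of SREBP. Macrophages handle much cholesterol from engulfed material, which reaches the cytoplasm through the lysosomal proteins NPC1 and NPC2, is esterified by SOAT1, and leaves the cell through ABCA1.

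In the annotation of build GRCm38, Hmgcs1 (HMG-CoA synthase) lies on chr13:119690379-119708260 and Idi1 (isopentenyl diphosphate isomerase) on chr13:8885501-8892451. Fdft1 (squalene synthase) lies on the minus strand of chr14:63145150-63179578, Sqle (squalene epoxidase) on chr15:59315077-59331192, and Lss (lanosterol synthase) on chr10:76531588-76557138. Srebf2 lies on chr15:82147181-82205379 and Insig1 on chr5:28071363-28078662. All 7 are protein-coding.

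The promoters of 5 of the 7 genes were present in the RefSeq promoter table (GRCm38.p6, from 250 bases before to 50 bases after the start); those of Sqle and Fdft1 were not analysed here. They were searched on both strands for TCACNCCAC and the looser TCANNCCAC (forms of the sterol regulatory element that SREBP binds; every match to the first is also a match to the second), CCAAT (bound by NF-Y), GGGCGG (bound by Sp1) and TTGCNNAA (a C/EBP motif). The windows that follow are shown because NF-Y and Sp1 are known partners of SREBP at such promoters. Each runs 5′ to 3′ on the plus strand, and capitals mark the sterol regulatory element in the first and the reverse complement of CCAAT in the others.
Hmgcs1, chr13:119690204-119690233: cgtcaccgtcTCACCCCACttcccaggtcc
Hmgcs1, chr13:119690296-119690325: cccgcctctcATTGGctgaaagcggatcgg
Lss, chr10:76531533-76531562: tgatgctctgATTGGccgagctcgcatcgg
Srebf2, chr15:82147124-82147153: tcgcgcgccgATTGGctaatgcaagcctgg
Insig1, chr5:28071186-28071215: ccctcctcccATTGGctccggcggcctcac
Idi1, chr13:8885551-8885580: cctccagctgATTGGcgagcccgggcatgg

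The Hmgcs1 promoter was the only promoter of the 5 with a match to TCACNCCAC, which began 137 bases before the start, and 1.24% of all 32851 promoters in the table held this motif. The looser TCANNCCAC gave no further match in the 5 promoters, and 4.18% of all promoters held it. All 5 promoters held CCAAT, against 37.4% of all promoters, and all 5 held GGGCGG, against 35.7%. TTGCNNAA, present in 10.8% of all promoters, had no match in these 5 windows. Among the 16 other enzymes of the pathway, 13 genes had 16 promoters in the table, of which 12 held CCAAT, 13 held GGGCGG, 2 held TTGCNNAA and 0 held either form of the sterol regulatory element. A match describes these letters only and is no measurement of binding.

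The values are TPM (transcript abundance scaled to the same total in each library), computed by the authors, and they keep no sequencing depth. They are given on 2 scales. The 2 genes of the rRNA locus, CT010467.1 and AY036118, made up 70.3% to 82.9% of each library's TPM. This share was 76.9% to 79.8% at 0h, 70.3% to 74.2% at 1h, 72.8% to 79.5% at 12h and 75.7% to 82.9% at 48h. The 1h range lay below those of 0h and 48h, and the 12h range overlapped all others. The second scale, called scaled TPM here, is TPM divided by a median-of-ratios size factor per library (means of 0.930, 1.47, 1.18 and 0.699 for 0h, 1h, 12h and 48h). Taken over all genes, the median log2 fold change from 0h in TPM was 0.59 for 1h, 0.34 for 12h and −0.18 for 48h, and in scaled TPM 0.02, 0.07 and 0.07. Of the genes called against 0h, 94.5%, 74.1% and 36.9% were higher in TPM for the 3 times, and 52.4%, 52.5% and 52.7% in scaled TPM. Between 48h and 12h the median was −0.62 in TPM and −0.01 in scaled TPM. The part of the rRNA locus in these shifts was not tested. Fold changes and adjusted p-values below are from limma on log2(TPM + 0.1), with Benjamini-Hochberg adjustment over 16415 genes, and a gene was called at an adjusted p under 0.05.

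The libraries of replicate 3 stood apart. Their deviations from the group means correlated with each other across genes in all 6 pairs (r from 0.07 to 0.26). The correlations with replicates 1 and 2 were below 0 in all 24 pairs. Deviations within a group sum to 0, so these negative values largely follow from the positive ones and are no separate evidence. Replicate 3 had the lowest share of the rRNA locus in each of the 4 groups. The labels name no batch. In the sample descriptions, however, the replicate 3 libraries of all groups are numbered after those of replicates 1 and 2. The cause was not tested. Results are therefore also given for replicates 1 and 2 only, a fit chosen after seeing the data that keeps 2 libraries a group.

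The labels were checked against marker genes. The summed TPM of 8 Pre-B genes (such as Cd79a, Pax5 and Vpreb1) lay between 292.83 and 332.52 at 0h and between 26.85 and 38.35 at 48h, and all 8 fell. The summed TPM of 8 macrophage genes lay between 3.65 and 5.11 at 0h and between 188.33 and 263.93 at 48h. Of the 7 of them that were tested 6 rose and Mrc1 was not called, while Adgre1, which encodes F4/80, was too low to test and at 0 in 2 of 3 libraries at 48h. Of 6 neutrophil genes, Camp reached 8.69 ± 2.11 TPM (SD, n = 3) at 12h and S100a8 1.96 ± 0.973 at 48h, with Mpo at 0 in all libraries. T cell and erythroid markers summed to at most 0.09 TPM and fibroblast markers to at most 0.34. In such bulk samples, fewer cells of a type and less RNA per cell cannot be told apart, and the part of these marker changes in the results below was not tested.

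All 7 genes fell between 0h and 48h, in TPM and in scaled TPM. Of all genes tested, 27.2% were called lower and 15.9% higher in this comparison in TPM, and 22.0% and 24.5% in scaled TPM. With a log2 fold change beyond 1 required as well, in TPM, 6 of the 7 were called lower, all but Srebf2, against 23.1% of all genes. The median log2 fold change of the 7 was −1.23 in TPM, against −0.18 for all genes, and −0.86 in scaled TPM, against 0.07. In TPM the 3 libraries at 48h lay below the 3 libraries at 0h for each of the 7 genes. In scaled TPM the same held for 6 of them, and Srebf2 overlapped. With replicates 1 and 2 only, 6 of the 7 were called lower in TPM, where Fdft1 missed the threshold (log2 fold change −1.29, adjusted p = 0.0567 with limma). In scaled TPM 5 were, where Fdft1 (−0.80, adjusted p = 0.179) and Insig1 (−0.64, adjusted p = 0.0584) missed it in limma. The shares of all genes given above are from the fit of all 12 libraries, not from this one.

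**Figure D1:**
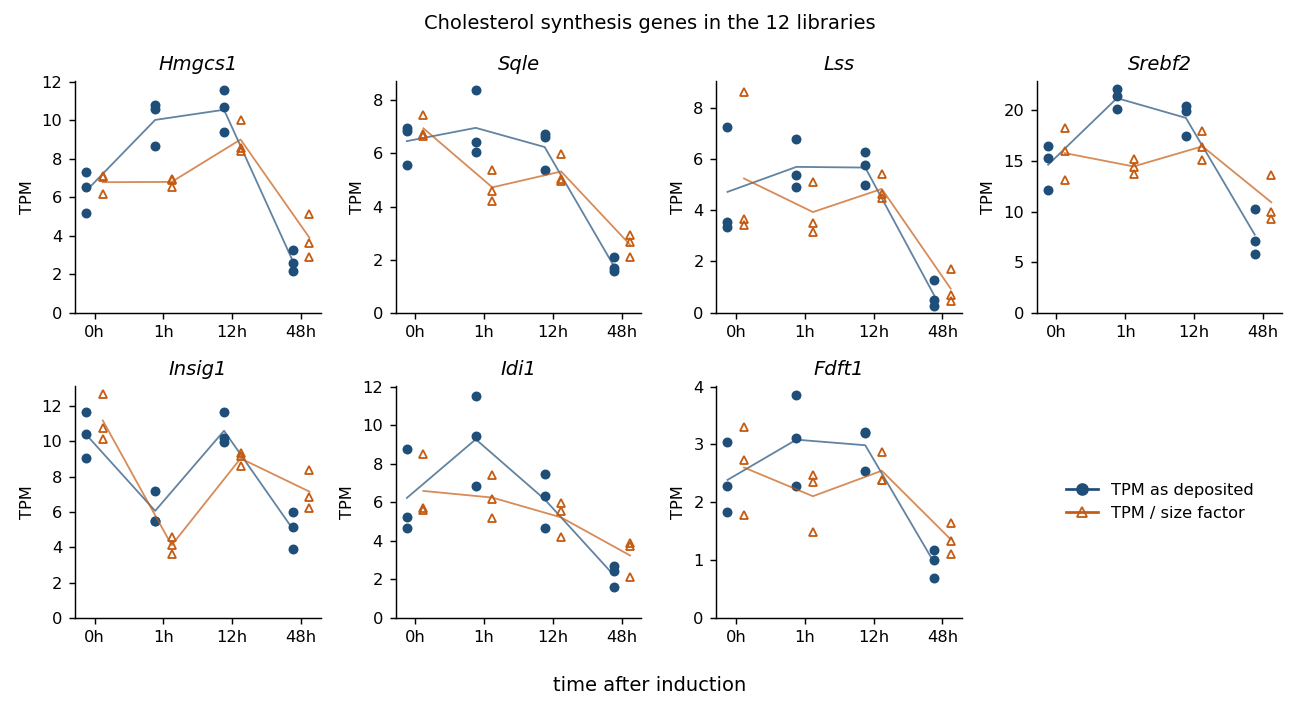
Level of each gene in the 12 libraries against time after induction, with TPM as deposited in filled circles and TPM divided by the size factor in open triangles; each point is a library and lines join the means of 3. All 7 genes are lowest at 48h in TPM, and Insig1 also dips at 1h; the means of Srebf2 and Idi1 at 1h lie above those at 0h in TPM and below them after division by the size factor, with neither change called.

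Among the enzymes, Lss had the greatest change. Its level was 3.55, 3.36 and 7.25 TPM at 0h, 4.93, 5.37 and 6.79 at 1h, 5.77, 4.98 and 6.26 at 12h, and 0.28, 0.49 and 1.27 at 48h. Replicate 3 was the highest of its group at all 4 times, and the 48h values remained below every other library. The log2 fold change at 48h against 0h was −2.75 (SE 0.42, adjusted p = 0.000242 with limma), and −2.42 in scaled TPM.

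Sqle, the first enzyme of the pathway that uses oxygen, had no called change until 12h. Its TPM were 6.96, 6.86 and 5.58 at 0h, 8.39, 6.45 and 6.06 at 1h, 5.36, 6.64 and 6.73 at 12h, and 1.67, 2.10 and 1.57 at 48h. In TPM the first 3 groups overlapped and the 48h group stood clear of them. In scaled TPM the 0h libraries (6.64 to 7.45) lay above those of 1h (4.22 to 5.38) and of 12h (4.97 to 5.97), with neither change called. The log2 fold change at 48h against 0h was −1.81 (SE 0.19, adjusted p = 1.5e-05 with limma), and −1.42 in scaled TPM.

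Idi1, which interconverts the isoprenoid building blocks, had 8.77, 5.24 and 4.69 TPM at 0h, 11.54, 9.45 and 6.85 at 1h, 6.34, 4.65 and 7.49 at 12h, and 2.44, 2.67 and 1.59 at 48h. Replicate 1 was the highest of its group at 0h and at 1h, and every 48h library lay below all others. The log2 fold change at 48h was −1.42 (SE 0.30, adjusted p = 0.00243 with limma), and −1.02 in scaled TPM.

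Fdft1, which commits isoprenoids to sterols, had the lowest mean TPM of the 7 at 0h, 1h and 12h, and at 48h Lss was lower. It had 1.83, 3.04 and 2.29 TPM at 0h, 3.85, 2.28 and 3.12 at 1h, 2.54, 3.20 and 3.22 at 12h, and 0.69, 1.18 and 1.00 at 48h. The log2 fold change at 48h was −1.23 (SE 0.27, adjusted p = 0.00294 with limma), and −0.86 in scaled TPM. Fdft1 shares 774 of its 4227 exon bases with Ctsb, a lysosomal protease gene on the opposite strand, and the kit does not mark strand. Ctsb had 4.96, 4.52 and 5.85 TPM at 0h and 69.58, 76.84 and 123.14 at 48h, so that the overlapping gene moved in the opposite direction to Fdft1. The part of the overlap in the Fdft1 values was not tested.

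Hmgcs1, the earliest enzyme of the pathway among the 7, had 7.29, 6.51 and 5.19 TPM at 0h, 10.80, 10.56 and 8.67 at 1h, 10.68, 9.37 and 11.56 at 12h, and 3.23, 2.59 and 2.19 at 48h. Both induced groups at 1h and 12h lay above the 0h group and the 48h group below it. The log2 fold change at 48h was −1.22 (SE 0.20, adjusted p = 0.00034 with limma), and −0.82 in scaled TPM. Hmgcs1, Idi1 and Lss share between 3.53% and 12.1% of their exon bases with genes on the opposite strand, none of which exceeded 0.35 TPM in a library.

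The 2 regulators had the smallest log2 fold changes of the 7 at 48h in TPM. Srebf2, the highest in TPM of the 7, had 16.49, 12.11 and 15.30 TPM at 0h, 21.42, 22.10 and 20.15 at 1h, 17.45, 19.95 and 20.41 at 12h, and 5.81, 7.12 and 10.21 at 48h. Its log2 fold change at 48h was −0.94 (SE 0.20, adjusted p = 0.00278 with limma), and −0.54 in scaled TPM (adjusted p = 0.0213). Insig1 had a log2 fold change at 48h of −1.05 (SE 0.19, adjusted p = 0.00098), and −0.64 in scaled TPM. In scaled TPM the calls for Srebf2 and Fdft1 were lost when single libraries were left out, in 4 and 3 of 12 cases, with adjusted p up to 0.0797 and 0.0805. The other 5 genes were called in all 12 cases of a single library left out.

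**Figure D2:**
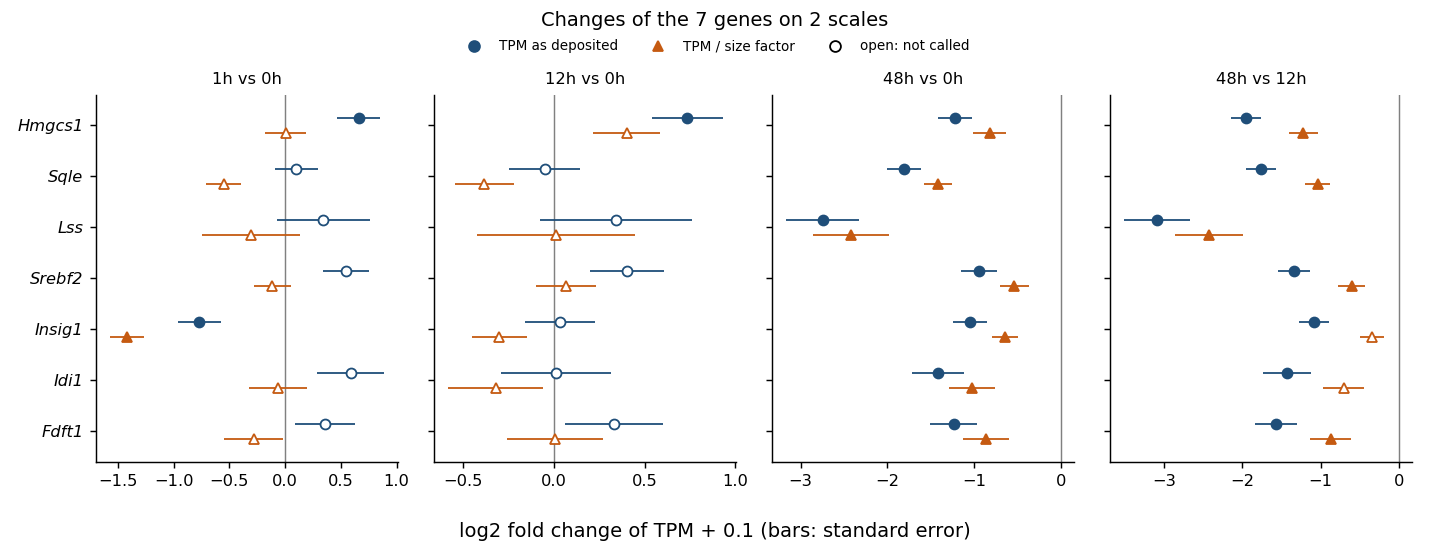
Log2 fold change of TPM + 0.1 for the 7 genes in 4 comparisons, with circles for TPM as deposited, triangles for TPM divided by the size factor, open symbols for genes not called and bars for the standard error. At 48h against 0h all symbols are filled and left of 0, while at 1h only Insig1 is filled on both scales and the points of Sqle, Lss, Srebf2, Idi1 and Fdft1 lie right of 0 in TPM and left of 0 after division by the size factor.

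None of the 7 was called lower at 12h than at 0h on either scale. The shares of all genes called lower in that comparison were 7.82% in TPM and 14.5% in scaled TPM. Between 12h and 48h all 7 genes fell in TPM, where 31.7% of all genes were called lower and 4.10% higher, and the median log2 change of the 7 was −1.57. In scaled TPM 5 of the 7 fell, where 11.9% of all genes were called lower and 10.5% higher, and the median was −0.87. The 5 were Lss (log2 fold change −3.09 in TPM and −2.43 in scaled TPM), Hmgcs1 (−1.95 and −1.22), Sqle (−1.76 and −1.04), Fdft1 (−1.57 and −0.87) and Srebf2 (−1.35 and −0.60). Insig1 changed by −1.08 in TPM and was −0.34 in scaled TPM, with an adjusted p of 0.139 in the limma fit of scaled TPM. Idi1 changed by −1.43 in TPM and was −0.70 in scaled TPM, with an adjusted p of 0.0806 in the same fit. In scaled TPM without single libraries, Fdft1 was called in 5 of 12 cases (adjusted p up to 0.117 with limma) and Srebf2 in 8 (up to 0.0842), and Hmgcs1, Sqle and Lss in all 12. With replicates 1 and 2 only, all 7 were called lower in TPM and 4 in scaled TPM, where Fdft1 was −0.91 (adjusted p = 0.204 with limma). The shares of all genes above are again from the fit of all 12 libraries. The comparisons of 48h with 0h and with 12h share the 48h libraries.

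Insig1 was the only gene of the 7 with a called change at 1h on both scales. It had 10.42, 11.66 and 9.04 TPM at 0h, 7.18, 5.49 and 5.51 at 1h, 9.95, 10.18 and 11.67 at 12h, and 3.92, 6.01 and 5.13 at 48h. All 1h libraries lay below all 0h and all 12h libraries. Between 0h and 1h it fell by 0.77 on the log2 scale in TPM (SE 0.19, adjusted p = 0.0155 with limma) and by 1.42 in scaled TPM (SE 0.15, adjusted p = 0.000172). Of all genes, 1.41% were called lower at 1h in TPM and 4.92% in scaled TPM. Its change in TPM was not beyond 1 on the log2 scale, as that of 1.08% of all genes was. Between 1h and 12h Insig1 rose by 0.80 in TPM (adjusted p = 0.0125 with limma) and by 1.12 in scaled TPM (adjusted p = 0.000344), where 6.98% and 11.3% of all genes were called higher and 15.0% and 8.77% lower. With a change beyond 1 required in TPM it was not called, against 5.49% of all genes called higher. The fall at 1h missed the threshold in TPM without 0h replicate 2 (adjusted p = 0.0592 with limma) or without 1h replicate 2 (0.0561), and was called in scaled TPM without any of the 12 libraries in turn. With replicates 1 and 2 only it was −0.80 in TPM, not called (adjusted p = 0.0756 with limma), and −1.45 in scaled TPM, called (adjusted p = 0.0221). The rise from 1h to 12h was then 0.67 in TPM, not called (adjusted p = 0.11 with limma), and was called in scaled TPM. At 12h against 0h its log2 fold change was 0.03 in TPM and −0.30 in scaled TPM, neither called. At 48h against 1h it was −0.28 in TPM, not called, and 0.78 in scaled TPM, called higher (adjusted p = 0.0017 with limma).

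Hmgcs1 was the only gene of the 7 called higher at 1h and at 12h, and only in TPM. Its log2 fold change at 1h was 0.66 in TPM (SE 0.20, adjusted p = 0.0302 with limma) and 0.01 in scaled TPM. The rise at 1h was lost without 0h replicate 2, 0h replicate 3, 1h replicate 1 or 1h replicate 2, with adjusted p of 0.0648, 0.0998, 0.0907 and 0.0877 in limma. At 12h it was 0.73 in TPM (SE 0.20, adjusted p = 0.0151 with limma) and 0.40 in scaled TPM (adjusted p = 0.127), and without 0h replicate 3 the call in TPM was lost (adjusted p = 0.0543). With replicates 1 and 2 only, the TPM call was kept at 1h (adjusted p = 0.0458 with limma) and lost at 12h (adjusted p = 0.0611). In TPM, 24.1% of all genes were called higher at 1h and 22.3% at 12h, and 16.7% and 17.7% with a change beyond 1, which Hmgcs1 did not reach. In scaled TPM the shares were 5.42% and 16.0%. Less the median of all genes, the change of Hmgcs1 at 1h was 0.07 on the log2 scale.

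The other 5 genes were not called at 1h or at 12h on either scale. At 12h, 7.82% of all genes were called lower in TPM and 14.5% in scaled TPM. At 1h the log2 fold changes were 0.10 for Sqle, 0.34 for Lss, 0.54 for Srebf2, 0.59 for Idi1 and 0.35 for Fdft1 in TPM. In scaled TPM all 5 turned below 0, from −0.55 for Sqle (adjusted p = 0.0532 with limma) to −0.06 for Idi1. At 12h they lay between −0.05 for Sqle and 0.40 for Srebf2 in TPM, and between −0.38 and 0.07 in scaled TPM, with Idi1 turning from 0.01 to −0.32. At 48h against 1h, 6 of the 7 fell in TPM, where 44.4% of all genes were called lower and 8.16% higher. In scaled TPM 4 did (Hmgcs1, Sqle, Lss and Idi1), where 19.8% were, the share called higher also being 19.8%. The scaled call of Idi1 was lost in 1 of 12 cases of a library left out (adjusted p = 0.0564 with limma) and with replicates 1 and 2 only (adjusted p = 0.0632).

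Of the 16 other enzymes of the pathway, 12 fell and 0 rose at 48h against 0h in TPM, against 27.2% and 15.9% of all genes. Their median log2 fold change was −1.40. In scaled TPM 10 fell and 0 rose, against 22.0% and 24.5% of all genes, with a median of −1.03. The greatest change was that of Fdps, which makes farnesyl diphosphate, the substrate of Fdft1: its TPM were 22.83, 22.09 and 20.80 at 0h and 2.48, 3.92 and 4.31 at 48h. The log2 fold change of Fdps was −2.62 (SE 0.21, adjusted p = 1.48e-06 with limma), and −2.22 in scaled TPM. Cyp51, the lanosterol demethylase just after Lss, had −1.81 in TPM and −1.42 in scaled TPM, and Acat2, the thiolase at the head of the pathway, had −1.94 and −1.57.

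The enzymes without a call at 48h were Mvd, Lbr, Ebp and Sc5d in TPM, and also Mvk and Nsdhl in scaled TPM. Lbr, a sterol reductase that is also a receptor of the nuclear lamina, had the highest level of the list. Its TPM were 28.03, 26.91 and 23.66 at 0h, 53.28, 60.11 and 76.05 at 12h, and 20.07, 23.10 and 26.64 at 48h. It rose at 12h (log2 fold change 1.25 in TPM, adjusted p = 0.00033, and 0.92 in scaled TPM, adjusted p = 8.31e-05, both with limma), and at 48h it was −0.18 in TPM and 0.23 in scaled TPM, not called on either scale. Tm7sf2, which encodes the other sterol reductase for the same step, fell at 48h by 1.73 on the log2 scale in TPM and by 1.45 in scaled TPM, with the 0h and 48h libraries overlapping.

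**Figure D3:**
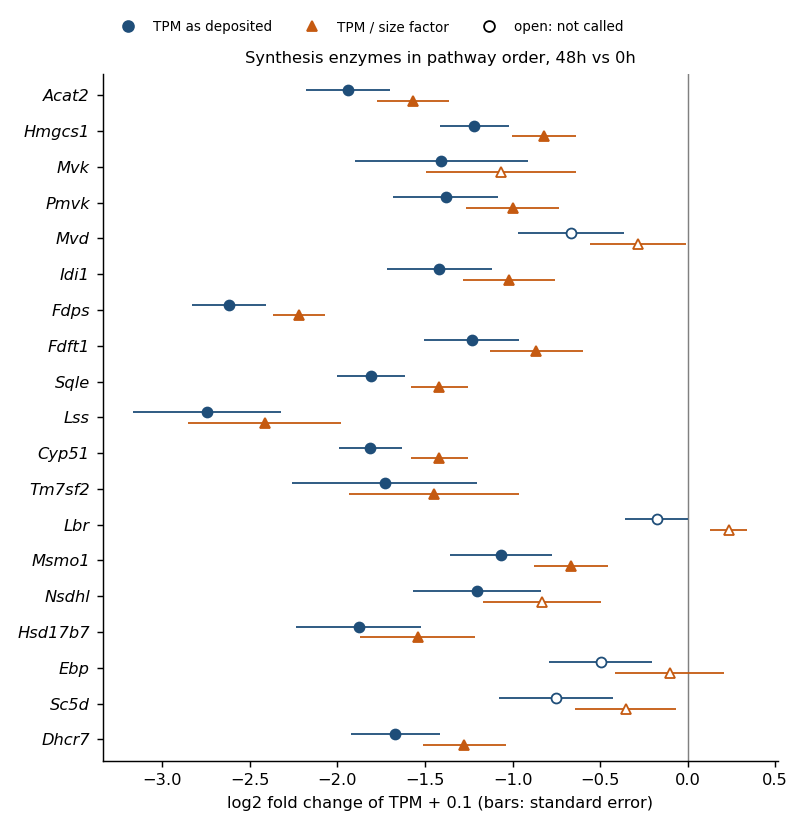
Log2 fold change of TPM + 0.1 at 48h against 0h for enzymes from acetyl-CoA to cholesterol in pathway order, 5 of the 7 genes among them, with circles for TPM as deposited, triangles for TPM divided by the size factor, open symbols for genes not called and bars for the standard error. Only Lbr lies right of 0, and only after division by the size factor; Lss and Fdps lie farthest left.

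At 1h 2 of the 16 enzymes were called higher in TPM, among them Lbr (log2 fold change 0.83), and 0 lower, against 24.1% and 1.41% of all genes. In scaled TPM 0 were higher and 3 lower, namely Fdps (−0.81), Cyp51 (−0.90) and Dhcr7 (−0.90), against 5.42% and 4.92%. At 12h 2 were called higher in TPM, Mvd (1.00) and Lbr, and 0 lower, against 22.3% and 7.82%. In scaled TPM 1 was higher (Lbr) and 1 lower (Acat2, −0.66), against 16.0% and 14.5%. From 1h to 12h only Mvd rose in TPM (1.17), against 6.98% of all genes called higher. In scaled TPM 5 rose, against 11.3%, among them Mvd (1.46), Cyp51 (0.70) and Fdps (0.48). On each scale 0 of the 16 fell, against 15.0% of all genes called lower in TPM and 8.77% in scaled TPM. At 48h against 0h, 27.2% of all genes were called lower in TPM and 22.0% in scaled TPM. Of the 7 branch genes that lead from the mevalonate pathway to other products, 2 fell at 48h on both scales. These were Fntb, a farnesyltransferase subunit (−2.20 in TPM), and Pdss2, of ubiquinone synthesis (−1.22 in TPM).

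Among 9 genes of SREBP processing and sterol-regulated degradation, 3 fell and 0 rose at 48h in TPM, against 27.2% and 15.9% of all genes. In scaled TPM 1 fell and 0 rose, against 22.0% and 24.5%. Scap fell on both scales (log2 fold change −1.78, adjusted p = 0.00185 with limma, and −1.39 in scaled TPM), from 10.08, 10.15 and 4.97 TPM at 0h to 1.27, 2.26 and 3.93 at 48h. Srebf1, the relative of Srebf2 that acts mainly on fatty acid genes, was −0.92 in TPM and −0.51 in scaled TPM, where it missed the threshold (adjusted p = 0.0813). Mbtps1, the first SREBP protease, was −1.04 in TPM and −0.64 in scaled TPM, where it also missed it (adjusted p = 0.0808). Insig2, the other INSIG gene, was not called: its log2 fold change was 0.24 in TPM (adjusted p = 0.647 with limma) and 0.64 in scaled TPM. The median of the 9 was −0.09 in TPM and 0.32 in scaled TPM.

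Of 9 fatty acid genes, most of them known SREBP1 targets, 8 fell at 48h on both scales. Of all genes, 27.2% were called lower in TPM and 22.0% in scaled TPM. The median log2 fold change of the 9 was −1.44 in TPM and −1.05 in scaled TPM. Examples among the 8 are Fads2 (log2 fold change −2.50 in TPM and −2.11 in scaled TPM), Scd1 (−1.85 and −1.45) and Fasn (−1.78 and −1.38). Acss2, the cytosolic acetyl-CoA synthetase, rose early, from 0.76, 1.34 and 1.00 TPM at 0h to 4.41, 3.65 and 3.95 at 1h (log2 fold change 1.88, adjusted p = 0.000891 with limma, and 1.25 in scaled TPM). At 48h Acss2 was 0.72 in TPM, not called (adjusted p = 0.0543 with limma), and 1.11 in scaled TPM, called higher. Acly was also called higher at 1h in TPM (0.50, adjusted p = 0.041 with limma), but not in scaled TPM (−0.16). In TPM 2 of the 9 were called higher at 1h and 0 lower, against 24.1% and 1.41% of all genes. In scaled TPM 1 was higher and 4 lower, against 5.42% and 4.92%.

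Genes for uptake, trafficking, storage and efflux of cholesterol were split. Among the uptake and transport genes, Npc1 and Npc2 rose and Stard4 fell at 48h on both scales. Npc2 went from 7.38, 4.82 and 5.01 TPM at 0h to 35.83, 41.43 and 55.65 at 48h (log2 fold change 2.93, adjusted p = 3.35e-06 with limma), and Npc1 had a log2 fold change of 1.64. Stard4, a cytoplasmic sterol carrier, had −1.60 in TPM and −1.23 in scaled TPM.

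Of 7 genes of the liver X receptors and their targets, esterification and efflux, 4 were tested and 3 rose at 48h on both scales. Of all genes, 15.9% were called higher in TPM and 24.5% in scaled TPM. Soat1, which esterifies cholesterol, rose early, from 6.67, 8.30 and 7.10 TPM at 0h to 27.14, 33.36 and 22.38 at 1h (log2 fold change 1.88, and 1.22 in scaled TPM, both called), and had 37.38, 39.38 and 44.93 at 48h. Abca1, the efflux transporter, had 0.06, 0.00 and 0.01 TPM at 0h and 2.25, 2.51 and 2.33 at 48h. Mylip, which encodes a ubiquitin ligase, rose from a mean of 0.353 TPM at 0h to 0.793 at 48h. Nr1h2, which encodes LXRβ, was tested and was not called at 48h on either scale. Its mean was 8.92 TPM at 0h and 6.2 at 48h. The log2 fold change of Nr1h2 was −0.58 in TPM (adjusted p = 0.115 with limma) and −0.18 in scaled TPM. Abcg1 and Nr1h3, which encodes LXRα, did not exceed 0.34 TPM in any library, and Ch25h was listed at 0 in all 12.

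**Figure D4:**
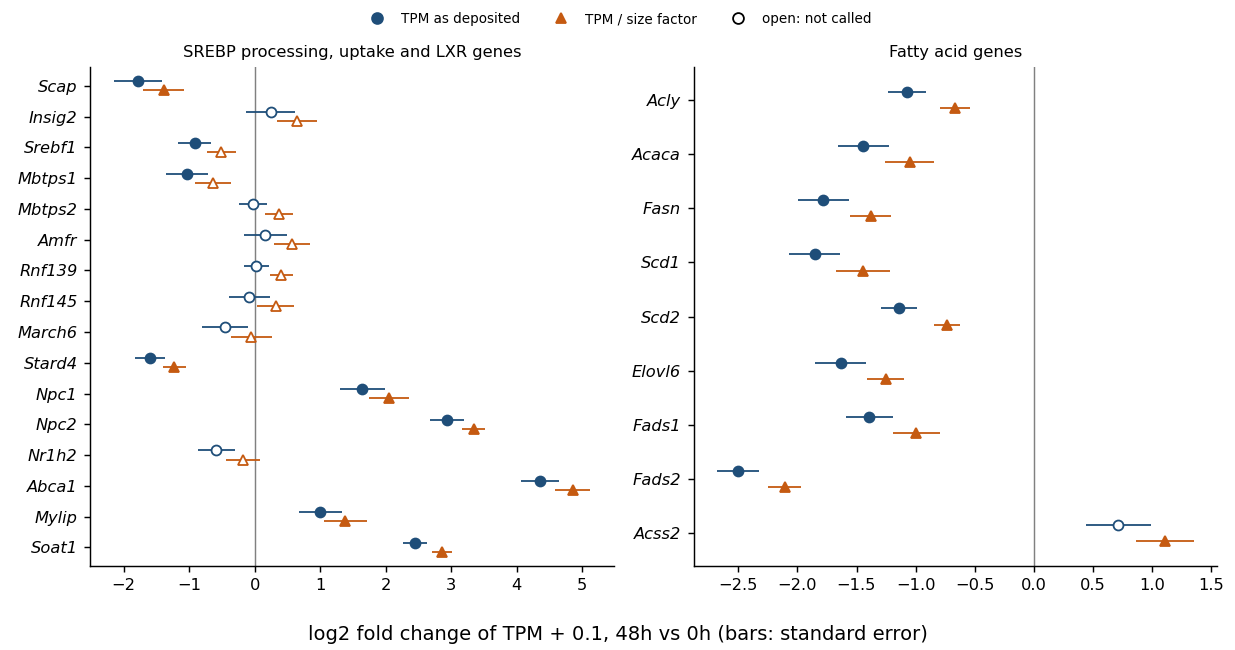
Log2 fold change of TPM + 0.1 at 48h against 0h for genes of SREBP processing, uptake and LXR on the left and of fatty acid synthesis on the right, with circles for TPM as deposited, triangles for TPM divided by the size factor, open symbols for genes not called and bars for the standard error. Npc1, Npc2, Abca1, Mylip and Soat1 lie right of 0 on both scales, and 8 of the 9 fatty acid genes lie left of it.

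The 7 genes were correlated with each other over the 12 libraries to different degrees, which is given as a description, since all points share the time course and the shift in TPM. Pearson's r over the 21 pairs had a median of 0.863 in TPM, from 0.455 for Insig1 with Idi1 upward, and the 6 lowest pairs in TPM all held Insig1. In scaled TPM the median was 0.620 and the lowest value 0.00880. The mean of the standardized levels of the 7 was compared with that of 9324 genes whose mean TPM reached 1. The 10 most alike in TPM were Vdac1, Ldha, Tkt, Cnn3, Mdh2, Eif4ebp1, Ddost, Fdps, Sept11 and Ddb1, with r from 0.988 to 0.980. Of these 7 were also among the 10 most alike in scaled TPM, where Fdps came first (r = 0.977) and Fads2 was also among them (r = 0.967). Ldha and Mdh2 encode dehydrogenases of lactate and malate and Tkt a transketolase. Of the 16 other synthesis enzymes, 9 were among the first 10% of the 9324 genes in TPM and 6 in scaled TPM. Of the 9 fatty acid genes, 6 were on each scale. Their median r was 0.938 in TPM and 0.832 in scaled TPM, against 0.900 and 0.683 for the 16 enzymes. For single genes, the most alike in TPM was Acly for Hmgcs1 (r = 0.987), Aurka for Sqle (0.986), Foxk1 for Lss (0.985), Mast2 for Srebf2 (0.988), Map4k1 for Insig1 (0.964), Ppp3cb for Idi1 (0.980) and Cops5 for Fdft1 (0.952). In scaled TPM it stayed the same for Hmgcs1, Srebf2 and Insig1. It changed to Eif3c for Sqle (0.974), Phlda1 for Lss (0.958), Usp14 for Idi1 (0.944) and Jmjd6 for Fdft1 (0.886).

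The Promoter Capture Hi-C lists asked whether the contacts of these promoters differed between times. The authors state a CHiCAGO score of at least 5 for listing, which the 0h values bear out; the other lists hold whole numbers of unstated unit, so that their threshold could not be checked. Merged replicates give no error, and the numbers below are side by side without a test. A start site of 6 of the 7 genes lay on a fragment used as bait; that of Hmgcs1 did not. The Sqle fragment had 39, 33, 35 and 44 contacts in order of time, more than in 94.5% to 97.3% of the 18175 baits at each time, while the median bait had 4. Of its 39 contacts at 0h, 35 were also listed at 48h (89.7%, and 79.5% of the 44), against 55.9% of all interactions listed at 0h. Its partners at all 4 times included the promoter fragments of Rnf139, a sterol-responsive ubiquitin ligase gene of the processing list, of Ndufb9 and of Mtss1, which lay 427, 384 and 232 kb away. Rnf139 itself was not called at 48h (log2 fold change 0.03 in TPM and 0.41 in scaled TPM).

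The Srebf2 fragment, which also holds a start of Ccdc134, had 10, 10, 14 and 14 contacts in order of time, and 9 of the 10 at 0h were also listed at 48h. The promoter fragment of Tnfrsf13c, the BAFF receptor gene, was among its partners at all 4 times. The Insig1 fragment, which also holds a start of Gm26608, had 26, 18, 17 and 20. Of the 26 at 0h, 17 were also listed at 48h on the same fragment (65.4%), against 55.9% of all interactions listed at 0h. The number was 25 when the other end could lie within 10 kb. This allowance raises the number for any bait, and the share of all interactions under it was not computed. The Idi1 fragment, only 268 bases long, had 9, 6, 4 and 10 contacts in order of time, of which 0 were listed at all 4 times. Of the 9 at 0h, 4 were also listed at 48h on the same fragment. The number was 7 when the other end could lie within 10 kb, again without a share of all interactions to set it against. The Fdft1 fragment had 1, 0, 3 and 1. The single Fdft1 contact at 48h was with the promoter fragment of Ctsb, 57.5 kb away, and it was not listed at the other times. The Lss fragment had 1 contact, at 12h. A contact that is not listed at a time was under the listing threshold there and may still exist.

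**Figure D5:**
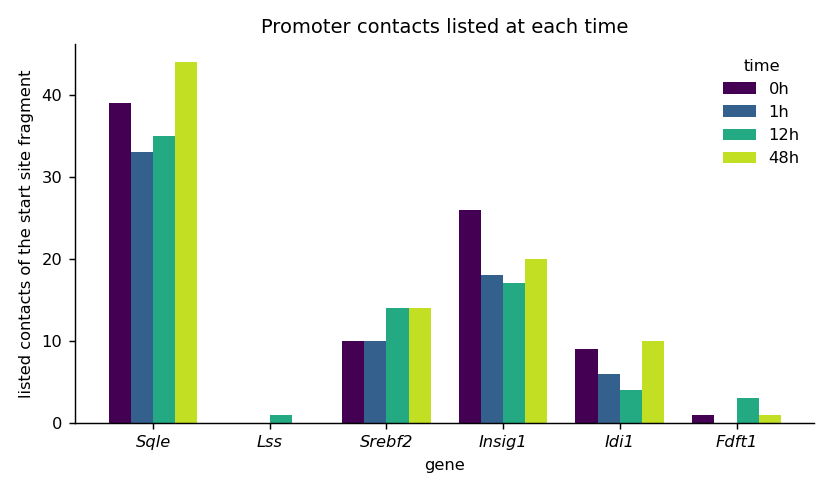
Number of listed contacts of the bait fragment that holds the start site of each gene (bars, by time; merged replicates, so no error bars). Sqle has the most contacts at every time, between 33 and 44, Lss and Fdft1 have at most 3, and Hmgcs1 is not drawn because its start site lay on no bait.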

How the data were processed

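RNA was depleted of rRNA and sequenced from single ends of libraries whose kit does not mark strand. The authors merged technical replicates, trimmed reads with Trim Galore 0.6.2, mapped them with HISAT2 2.1.0 to mm10 and deposited TPM by RSEM. The authors mapped Promoter Capture Hi-C reads with HiCUP, pooled 2 replicates per time and scored interactions by CHiCAGO. A score stands beside each deposited interaction of 0h; from the lists of 1h, 12h and 48h, whose values have no stated unit, only positions were used. Hi-C was not used here. Gene IDs matched GENCODE release M21 (Ensembl release 96) in 100% of cases; 27 symbols in the table read as dates, March6 among them, which was matched by its ID.

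The 16415 genes whose mean TPM reached 0.1 entered limma 3.58.1 in R 4.3.3 (lmFit, contrasts, eBayes with trend) on log2(TPM + 0.1), all 12 libraries in 1 model. A fold change on this scale understates the change of low genes. TPM keep no depth, so that no counting interval was possible, and the authors used DESeq2 on counts not analysed here. Scaled TPM were divided by the median ratio to the geometric mean over 11246 genes above 0 in all libraries. The model was tested on simulated data. Other steps used Python 3.11.15, numpy 2.4.6 and pandas 2.3.3. The genes, lists, motifs and comparisons were chosen with earlier results of these data known. The genes named are the 7 genes, their lists, the 10 genes most alike to their mean over the libraries and the most alike to each, and the genes on contacting promoter fragments. Some genes of the lists enter the counts but are not reported here by name. Contacts were counted once per pair of fragments.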

Additional observations from a re-analysis of the deposited data

Results flagged for a closer look

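The changes from 0h of all 7 genes differed between times by limma. In such a difference the 0h libraries cancel, so that it is the same test as the comparison of 48h with 12h, or of 12h with 1h, given above and no further evidence. Between 12h and 48h the difference in log2 fold change was −1.95 for Hmgcs1, −1.76 for Sqle, −3.09 for Lss, −1.35 for Srebf2, −1.08 for Insig1, −1.43 for Idi1 and −1.57 for Fdft1 in TPM, and for Insig1 and Idi1 it missed the threshold in scaled TPM. Between 1h and 12h the difference was 0.80 for Insig1, called on both scales, and was not called for the other 6 genes on either scale. Groups of 3 libraries were too small for a test of single outlying libraries.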

How the results depend on the processing

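The fall of all 7 genes at 48h against 0h kept its direction and its call under each of the 11 alternatives of scaling, pseudocount, filter, model and block other than the fit of replicates 1 and 2 only, and without any of the 12 libraries in turn on the deposited scale; with a log2 fold change beyond 1 required, 6 were called. Counts and signs at 1h and 12h depended on the scaling, and the cause was not tested. The number of the 7 genes called higher at 1h, 1 in TPM, was 0 after median-of-ratios scaling, after rescaling without the 20 most abundant genes, after quantile normalization, without the mean-variance trend and beyond a log2 fold change of 1, and 2 when only the 6 libraries compared were fitted. At 12h it was 0 under the same scalings and beyond a change of 1; beyond a change of 1 it was also 0 for genes lower at 1h and for genes higher at 12h against 1h. The number higher at 48h against 1h was 1 with median-of-ratios or quantile values. Of the 16 other enzymes, 0 were higher at 1h under the 3 scalings, and 3, 1 and 2 lower after median-of-ratios scaling, rescaling without the 20 genes and quantile normalization. At 12h both the median-of-ratios and the quantile values gave 1 higher and 1 lower, and a fit of only 6 libraries gave 1 higher.

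With the replicate number as a block, fitted because the labels repeat the numbers, the counts were 7 lower for 48h and 1 in each direction for 1h, and no call of the 7 genes changed. Deviations of same-numbered libraries correlated between −0.01 and 0.26, not all over 0.1, and 7 of 12 libraries correlated best with their own number; the numbers were not taken as pairs, although the replicate 3 libraries correlated with each other. The block with median-of-ratios scaling, chosen after seeing the data as was the threshold of 1, gave 2 of the 7 lower at 1h (Insig1 and Sqle) with 0 higher, 0 higher at 12h, and 1 higher at 48h against 1h. Among the 16 it gave 4 lower with 0 higher at 1h, and 1 in each direction at 12h.

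With replicates 1 and 2 only, also chosen after seeing the data, 6 of the 7 were lower at 48h against 0h in TPM and 5 in scaled TPM. In TPM 0 were lower at 1h, higher at 12h, or higher at 12h against 1h, and 1 of the 16 enzymes was higher at 12h. In scaled TPM 0 were higher at 1h or 12h, 4 lower at 48h against 12h and 1 higher at 48h against 1h, and of the 16 enzymes 0 were higher and 2 lower at 1h and 1 higher at 12h. Of all 16415 genes, this fit called 174 lower at 1h and 2095 higher at 12h in TPM. In scaled TPM it called 536 higher and 438 lower at 1h, and 1914 higher at 12h. Log2 fold changes that changed sign in this fit, among which only that of Hmgcs1 at 1h had been called in TPM with all libraries, were, in TPM, −0.13 for Insig1 and −0.32 for Idi1 at 12h, and −0.09 for Hmgcs1 at 12h against 1h. In scaled TPM they were −0.03 for Hmgcs1, −0.56 for Sqle, −0.09 for Lss, −0.04 for Srebf2 and Idi1 and −0.32 for Fdft1 at 1h, −0.29 for Insig1 and −0.47 for Idi1 at 12h, 0.20 for Sqle, 0.28 for Srebf2 and 0.43 for Fdft1 at 12h against 1h, and 0.82 for Insig1 at 48h against 1h.

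Leaving out single libraries moved the number of the 7 genes higher at 1h between 0 and 2, lower at 1h between 0 and 1, higher at 12h between 0 and 1, and the 16 enzymes higher at 12h between 1 and 2 and lower at 48h between 9 and 12. Srebf2 was the added gene at 1h without 48h replicate 1 (adjusted p = 0.0454 with limma) or 48h replicate 3 (0.0251) and with only 6 libraries (0.0378). The enzymes at 12h numbered 1 without 0h replicate 1, 0h replicate 3 or 12h replicate 3.

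Log2 fold changes that changed sign are given in the order median-of-ratios scaling (with and without the block), rescaling without the 20 genes, quantile normalization. At 1h against 0h they were −0.55, −0.39 and −0.46 for Sqle, −0.31, −0.14 and −0.23 for Lss, and −0.28, −0.12 and −0.24 for Fdft1, with −0.11 for Srebf2 and −0.06 for Idi1 under the first only. At 12h against 0h they were −0.30, −0.18 and −0.24 for Insig1 and −0.32, −0.20 and −0.29 for Idi1. At 12h against 1h they were 0.17, 0.12 and 0.12 for Sqle, 0.18, 0.13 and 0.13 for Srebf2, and 0.29, 0.25 and 0.29 for Fdft1, and with a pseudocount of 1 −0.00056 for Lss. At 48h against 1h they were 0.78, 0.55 and 0.65 for Insig1. None of these sign changes at 1h or 12h belonged to a change called in TPM as deposited. Without single libraries, uncalled values near 0 also changed sign: Sqle ranged from −0.04 to 0.19 (1h) and from −0.15 to 0.05 (12h), Insig1 from −0.06 to 0.12 and Idi1 from −0.16 to 0.28 at 12h, and at 12h against 1h Hmgcs1 from −0.02 to 0.16, Lss from −0.10 to 0.13 and Fdft1 from −0.22 to 0.15. At a CHiCAGO score of at least 10 the 0h contacts numbered 22 instead of 39 for Sqle, 4 instead of 26 for Insig1, 4 instead of 10 for Srebf2 and 0 instead of 9 for Idi1.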
